A study of Mus musculus with 203 samples.

Results

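The C-type lectin receptors and their SYK-CARD9 signalling genes were followed through RNA-seq libraries of mouse lung airway and parenchyma, 43 taken at 3 weeks and 160 at 11 weeks, in 20 groups. The set held 10 of the 43346 gene identifiers in the deposited table, taken by gene symbol with no measured value in the rule: the receptors Clec7a, Clec4n, Clec4e and Clec4d, the adaptor Fcer1g, the kinase Syk, the exchange factor Vav1, and Card9, Bcl10 and Malt1, whose proteins form 1 complex. All 10 genes passed the filter on low counts in every fit.

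C-type lectin receptors are surface proteins, found mainly on macrophages, monocytes, dendritic cells and neutrophils, that bind sugars and glycolipids of fungi, mycobacteria, mites and damaged cells. Clec7a encodes Dectin-1, a receptor for beta-glucans with a tyrosine motif in its own tail. Clec4n encodes Dectin-2, which binds mannose-rich glycans and has been studied as a sensor of house dust mite extract, Clec4e encodes Mincle, a glycolipid receptor, and Clec4d encodes MCL, the partner of Mincle. The last 3 receptors have no signalling motif of their own and rely on the Fc receptor gamma chain, the product of Fcer1g. A phosphorylated motif binds SYK, VAV1 takes part in the step from SYK to CARD9, and the CARD9, BCL10 and MALT1 complex then activates NF-kB and the transcription of cytokine genes.

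All libraries came from female Balb/C mice aged 18 to 20 weeks. At 3 weeks the mice had been given the vehicle (PBS) or house dust mite extract (HDM) intranasally on 5 days per week. The vehicle groups held 11 airway and 12 parenchyma libraries, and the HDM groups 10 of each tissue. At 11 weeks there were 16 groups of 10 libraries, 8 in each tissue. They combined PBS or HDM with room air (AIR) or cigarette smoke (CS), and each combination was taken with or without dexamethasone (DEX), a glucocorticoid. In these mice HDM went on 3 times per week from week 4 to week 11, smoke was given 2 times per day on 5 days per week for 8 weeks, and DEX was given during week 11, at a dose not given in the sources used here. The 3 and 11 week mice therefore differed in the frequency as well as the duration of HDM, and the effects of these cannot be told apart. The tissues were dissected pieces that hold many cell types, and no label tied an airway library to the parenchyma library of the same mouse.

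Total counts ran from 13003111 to 40240710 per library, with a median of 28090641, and the least different pair of libraries within a group had a chi-square of 8.92 per degree of freedom, so no library was counted as a duplicate. The tissue labels were checked with an airway score, the mean log2 level of smooth muscle and ciliated cell markers less that of alveolar cell markers. Its median at 3 weeks was -3.07 in PBS airway and -5.83 in PBS parenchyma, and -2.34 and -4.91 with HDM. Scores spread widely within the airway groups, from -4.13 to -0.34 with PBS and from -4.44 to 0.73 with HDM at 3 weeks. Library X63 (HDM airway, 3 weeks) had the score of 0.73, and X109 (HDM/air airway, 11 weeks), at -5.15, lay below every HDM/air parenchyma library (-4.77 to -3.78). In X32 (HDM/air with DEX, parenchyma) 33.7% of the counts belonged to Gm42418, against a median of 0.233% in the other libraries of its group. Values without these 3 libraries are given where they moved a call.

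The 4 receptor genes lie on chromosome 6 (GRCm38, GENCODE M21 gene models). Clec4n (chr6:123229843-123247021, plus strand), Clec4d (chr6:123262111-123275265, plus strand) and Clec4e (chr6:123281789-123289870, minus strand) span 60028 bases, and Clec7a (chr6:129461591-129472779, minus strand) is listed there as a polymorphic pseudogene. Fcer1g lies at chr1:171229572-171234365, Syk at chr13:52583173-52648792, Vav1 at chr17:57279100-57328031, Card9 at chr2:26352176-26360918 and Bcl10 at chr3:145922804-145934356. Card9 overlaps Gm13562 on the opposite strand, and reads of that pair may not have been separable.

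The 250 bases before the start site were read from RefSeq (GRCm38.p6) for the 8 members that the table held (all but Clec4n and Malt1), and searched on both strands for GAGGAA (the core letters bound by PU.1, a myeloid transcription factor), TGANTCA (AP-1) and an NF-kB motif (GGG, any 2 letters, TT, any letter, CC). The PU.1 core occurred in 4 of the 8 promoters, in those of Clec7a, Clec4e, Clec4d and Vav1, and in 23.3% of the 32851 promoters in the table. Clec4e held it at 2 places and the others at 1. Neither the AP-1 nor the NF-kB letters, present in 6.75% and 4.11% of all promoters, occurred in any of the 8. A match is a description of letters and not of binding. Each receptor searched (Clec7a, Clec4e and Clec4d) had a match and Clec4n could not be searched, so matches cannot be set against the size of the HDM change. The RefSeq start used lay 1458 bases from the GENCODE start for Bcl10 and 264 for Syk, and at most 16 for the others. The 4 promoters with a match are shown, with capitals marking the PU.1 core on either strand.
Clec7a promoter (chr6:129472780-129473029, minus strand): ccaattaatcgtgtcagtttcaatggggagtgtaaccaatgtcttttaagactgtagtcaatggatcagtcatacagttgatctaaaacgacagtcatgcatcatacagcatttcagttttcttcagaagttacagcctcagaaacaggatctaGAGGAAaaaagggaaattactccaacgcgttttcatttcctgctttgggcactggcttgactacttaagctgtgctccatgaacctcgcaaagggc
Clec4e promoter (chr6:123289872-123290121, minus strand): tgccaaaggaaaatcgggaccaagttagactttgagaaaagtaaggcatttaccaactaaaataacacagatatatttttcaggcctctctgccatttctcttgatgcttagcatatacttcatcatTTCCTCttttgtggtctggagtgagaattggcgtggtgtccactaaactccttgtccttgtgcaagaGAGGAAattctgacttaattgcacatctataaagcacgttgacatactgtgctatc
Clec4d promoter (chr6:123261857-123262106, plus strand): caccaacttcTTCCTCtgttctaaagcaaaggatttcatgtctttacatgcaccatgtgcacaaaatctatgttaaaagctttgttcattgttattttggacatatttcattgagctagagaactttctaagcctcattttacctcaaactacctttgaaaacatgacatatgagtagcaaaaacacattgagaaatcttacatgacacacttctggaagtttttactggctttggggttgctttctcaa
Vav1 promoter (chr17:57278850-57279099, plus strand): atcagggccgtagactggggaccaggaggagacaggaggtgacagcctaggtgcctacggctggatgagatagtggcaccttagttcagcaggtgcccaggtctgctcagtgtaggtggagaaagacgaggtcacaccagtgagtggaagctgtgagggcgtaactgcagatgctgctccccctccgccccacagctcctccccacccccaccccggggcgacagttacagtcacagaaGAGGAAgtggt

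In control lungs Clec7a was the most abundant of the 10 genes per length. Levels are given as counts-per-million (CPM), scaled between libraries by the trimmed mean of M values. Per kilobase of exon, the median in 3 week PBS parenchyma was 69.2 CPM for Clec7a, 45.4 for Clec4n, 30.1 for Fcer1g, 11.1 for Bcl10 and 9.45 for Clec4d. It was lowest for Clec4e at 1.91 and Malt1 at 1.63, with Vav1 at 6.30, Syk at 6.28 and Card9 at 5.03.

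Clec7a, Clec4n, Card9 and Bcl10 were lower in the airway than in the parenchyma of PBS mice at 3 weeks. These 4 of 10 genes passed the test (limma, adjusted p under 0.05), as did 31.7% of all genes in that direction, and none passed in the other. Bcl10 did not pass without the libraries that stand apart (-0.137, adjusted p = 0.07). In bulk samples such as these, fewer cells of a type and less RNA per cell cannot be told apart. Clec7a had 49.3 to 143.9 CPM in airway and 123.4 to 265 CPM in parenchyma, a log2 difference of -0.86 ± 0.20 (SE, n = 11 and 12, adjusted p = 0.00045), and Card9 differed by -0.71 ± 0.13 (adjusted p = 1.7e-05). At 11 weeks 7 of 10 were lower in PBS/air airway, where 30.1% of all genes were, with Clec7a at -1.01 ± 0.19 (adjusted p = 2.1e-06) and Clec4e, Malt1 and Vav1 not passing. With the airway score as a covariate 2 of 10 passed at 11 weeks. The score was centred within each tissue over all exposures, so this fit does not adjust the difference between tissues for airway content.

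HDM at 3 weeks raised all 10 genes in both tissues. In airway 10 of 10 rose, where 34.1% of the 17381 genes tested rose and 74.6% changed in either direction. In parenchyma 10 of 10 rose, where 33.4% of all genes rose and 77.7% changed. A log2 fold change of at least 1 was reached by 8 of 10 in each tissue, against 12.1% of all genes in airway and 14.5% in parenchyma. The median log2 fold change of the 10 was 2.01 in airway and 2.43 in parenchyma, against -0.07 and -0.13 over all genes. PBS and HDM libraries did not overlap for 7 of 10 genes in airway and 9 of 10 in parenchyma. The share of all genes without overlap was not computed, so these 2 counts cannot be set against it.

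Among the receptors Clec4e had the largest fold in both tissues. The first value of each set of 3 is the lowest library, the second the median and the third the highest, in CPM. Clec4e rose from 3.73, 6.81 and 11.8 in PBS airway to 52.3, 131.7 and 259 with HDM, 18.2-fold in the fit (log2 fold change 4.19 ± 0.30, SE, n = 11 and 10, limma adjusted p = 4.4e-16). In parenchyma Clec4e rose from 4.51, 9.502 and 14.4 to 153.8, 257 and 473, or 27.8-fold (log2 fold change 4.80 ± 0.29, n = 12 and 10, adjusted p = 2.2e-18). The PBS and HDM libraries did not overlap for Clec4e in either tissue, and the lowest HDM library was above the highest PBS library by a wide margin.

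Clec7a, the beta-glucan receptor, was at 49.3, 105.8 and 143.9 in PBS airway and at 145.3, 1047 and 1632 in HDM airway (8.31-fold, log2 fold change 3.06 ± 0.24, adjusted p = 8.8e-15). The groups did not overlap, but 1 HDM airway library, X63, lay next to the highest PBS library. Without the libraries that stand apart the log2 fold change of Clec7a in airway was 3.36. In parenchyma, where Clec7a went from 123.4, 182.6 and 265 to 1432, 1888 and 2327, it rose 9.43-fold (log2 fold change 3.24 ± 0.25, adjusted p = 2.6e-15) with a clear gap between the groups. Clec4d, the partner of Mincle, rose from 5.38, 11.2 and 20.98 to 39.8, 92.6 and 194.98 in airway (7.78-fold, 2.96 ± 0.24 on the log2 scale, adjusted p = 2.6e-14) and 12.5-fold in parenchyma (3.64 ± 0.24, adjusted p = 2.9e-17), with no overlap in either.

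Clec4n, the Dectin-2 gene, had the smallest change of the 4 receptors. It went from 21.99, 42.2 and 57.7 to 52.7, 178.04 and 391 in airway (4.198-fold, log2 fold change 2.07 ± 0.20, adjusted p = 4.3e-12) and from 51.1, 64.4 and 96.7 to 264, 372 and 486 in parenchyma (5.19-fold, 2.38 ± 0.20, adjusted p = 7.4e-14). In airway 9 of 10 HDM libraries lay above every PBS library, and in parenchyma the groups did not overlap. The 4 receptors also took different shares of their summed level per length. Clec4e went from 1.86% ± 0.542 (SD, n = 11) to 4.96% ± 1.75 (n = 10) in airway and from 1.43% ± 0.320 to 4.98% ± 1.93 in parenchyma, while Clec4n went from 37.2% ± 2.31 to 22.8% ± 4.26 and from 36.96% ± 2.68 to 22.9% ± 2.63. These shares were not tested.

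**Figure D1:**
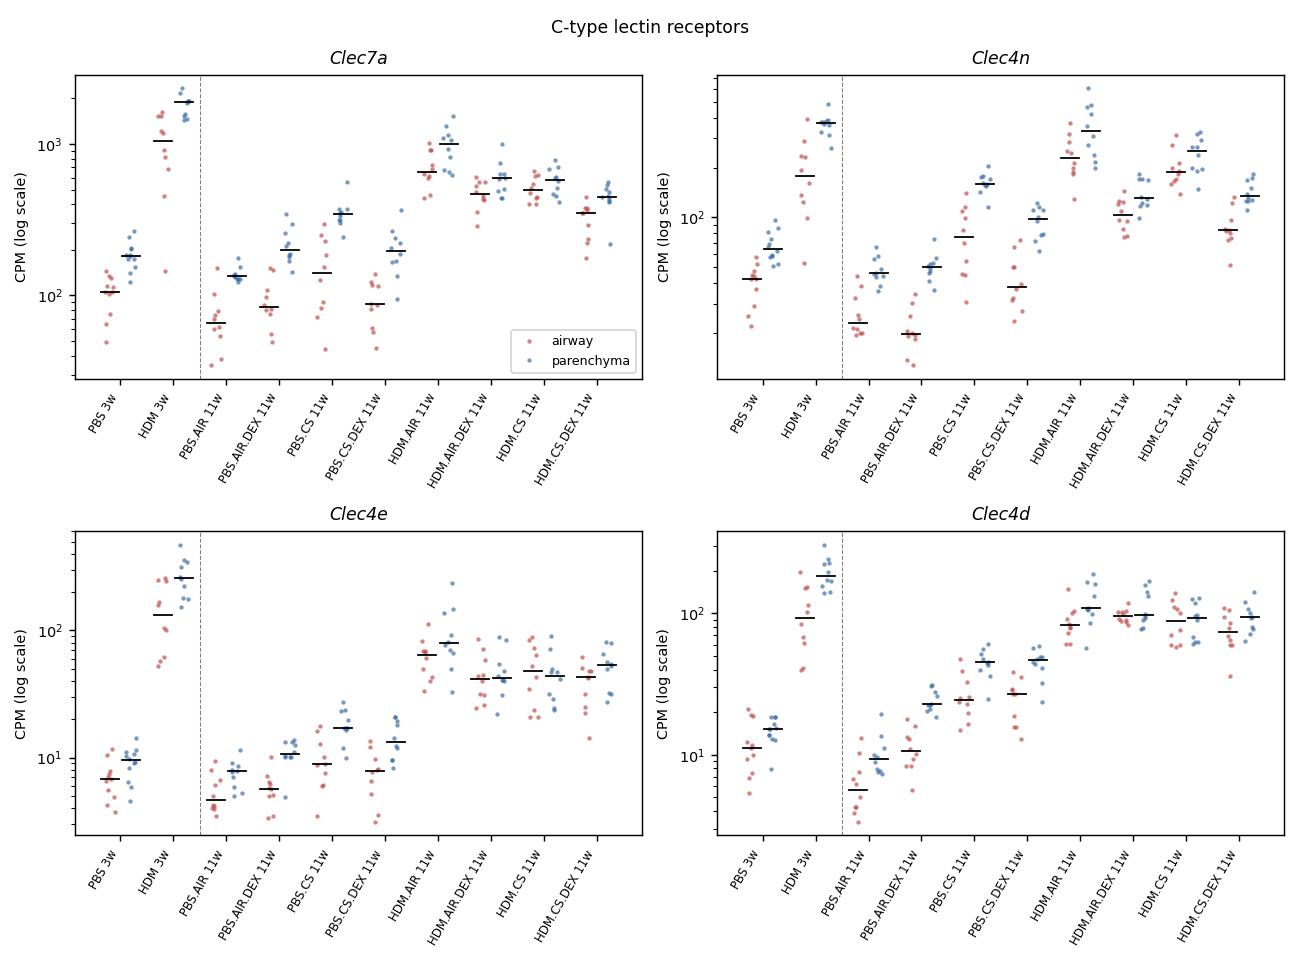
Level of the 4 receptor genes (CPM, log axis) in each library of the 20 groups, with airway libraries in red, parenchyma libraries in blue, black lines for group medians and a dashed line between the 3 week and 11 week groups. The HDM groups stand above their PBS groups for each receptor, with 1 low HDM airway library at 3 weeks.

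The adaptor, the kinase and the exchange factor rose in both tissues as well. Fcer1g went from 18.9, 24.4 and 30.3 to 47.95, 97.8 and 159.6 in airway (3.78-fold, log2 fold change 1.92 ± 0.15, adjusted p = 1.3e-14) and rose 5.62-fold in parenchyma (2.49 ± 0.15, adjusted p = 3.4e-18). Syk went from 37.98, 47.4 and 66.5 to 101, 206 and 253 in airway (3.85-fold, 1.95 ± 0.11, adjusted p = 2.1e-18) and rose 3.97-fold in parenchyma (1.99 ± 0.11, adjusted p = 2.3e-19). Vav1 went from 16.003, 20.1 and 28.2 to 47.4, 90.6 and 117.4 in airway (3.84-fold, 1.94 ± 0.11, adjusted p = 1.8e-18) and rose 4.80-fold in parenchyma (2.26 ± 0.11, adjusted p = 8.4e-21). For Fcer1g, Syk and Vav1 every HDM library was above every PBS library in both tissues.

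The 3 genes of the CARD9 complex all rose, Malt1 by more than Bcl10 and Card9 in the fitted folds, a difference that was not tested. Malt1, the protease gene (chr18:65430938-65479067), went from 21.7, 25.95 and 31.9 to 56.4, 129.1 and 196.5 in airway (4.65-fold, log2 fold change 2.22 ± 0.13, adjusted p = 2.4e-18) and rose 6.35-fold in parenchyma (2.67 ± 0.13, adjusted p = 4.5e-21), again with no overlap. Bcl10, the adaptor between CARD9 and MALT1, went from 36.2, 42.2 and 52.4 to 49.4, 64.9 and 77.6 in airway (1.48-fold, 0.56 ± 0.07, adjusted p = 6.4e-10) and rose 1.60-fold in parenchyma (0.68 ± 0.07, adjusted p = 2.7e-12). Its groups overlapped in airway and not in parenchyma.

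Card9 itself, the scaffold that gives the route its name, had the smallest fold. It went from 4.29, 6.87 and 11.2 to 6.11, 10.9 and 14.3 in airway (1.46-fold, log2 fold change 0.55 ± 0.13, adjusted p = 0.00035) and from 8.73, 11.5 and 14.5 to 14.1, 17.03 and 19.7 in parenchyma (1.39-fold, 0.47 ± 0.12, adjusted p = 0.00048). The groups overlapped in both tissues. With the airway score as a covariate the parenchyma value of Card9 was 0.26 and no longer passed (adjusted p = 0.13). The score itself ran from -6.04 to -5.09 with PBS and from -5.07 to -4.38 with HDM there, so this fit cannot separate the score from HDM. After HDM the median of Card9 per kilobase in parenchyma was 7.42 CPM, the lowest of the 10, against 10.9 for Malt1, 17.6 for Bcl10, 24.5 for Syk, 32.6 for Vav1, 51.7 for Clec4e, 114.4 for Clec4d, 196.97 for Fcer1g, 262 for Clec4n and 716 for Clec7a.

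Genes that mark several kinds of white blood cells rose in the same libraries, and the summed mast cell markers did not. In parenchyma the 5 mast cell markers summed to 97.2 to 146.2 CPM with PBS and 40.8 to 72.005 CPM with HDM, without overlap. In airway their sums were 45.4 to 101.1 and 44.1 to 69.7 CPM, with overlap. How many of the 5 mast cell markers rose or fell is not given here, and a sum can rest on its most abundant marker. Ptprc, which encodes the pan-leukocyte antigen CD45, lay at 147.03 to 271 CPM with PBS and 265 to 616 CPM with HDM in airway (log2 fold change 1.34), and at 201.5 to 281 and 479 to 634 CPM in parenchyma (1.09). Of 5 macrophage markers 4 rose in each tissue and 1 fell in airway, and their summed level was 168.03 to 252 CPM with PBS and 392 to 965 CPM with HDM in airway, and 169.7 to 309 and 928 to 1335 CPM in parenchyma. All 7 neutrophil markers rose in both tissues, with sums of 89.5 to 344 CPM and 513 to 1450.4 CPM in airway, and 341 to 614 and 1206 to 3791 CPM in parenchyma. Of 4 monocyte markers 3 rose in each tissue, with sums of 171.3 to 286 CPM and 327 to 557 CPM in airway, and 162.8 to 236 and 408 to 644 CPM in parenchyma. Of 5 dendritic cell markers 3 rose and 1 fell in each tissue, with sums of 71.2 to 106.7 and 132.2 to 639 CPM in airway, and 83.1 to 115.1 and 448 to 751 CPM in parenchyma. Epx, an eosinophil granule gene, had at most 3 counts in both PBS groups. The 5 eosinophil markers summed to 1.40 to 4.52 CPM with PBS and 10.05 to 34.2 CPM with HDM in airway. In parenchyma they summed to 1.74 to 7.22 and 9.38 to 31.7 CPM, without overlap in either tissue. The part of these cells in the rise of the receptors was not tested.

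**Figure D2:**
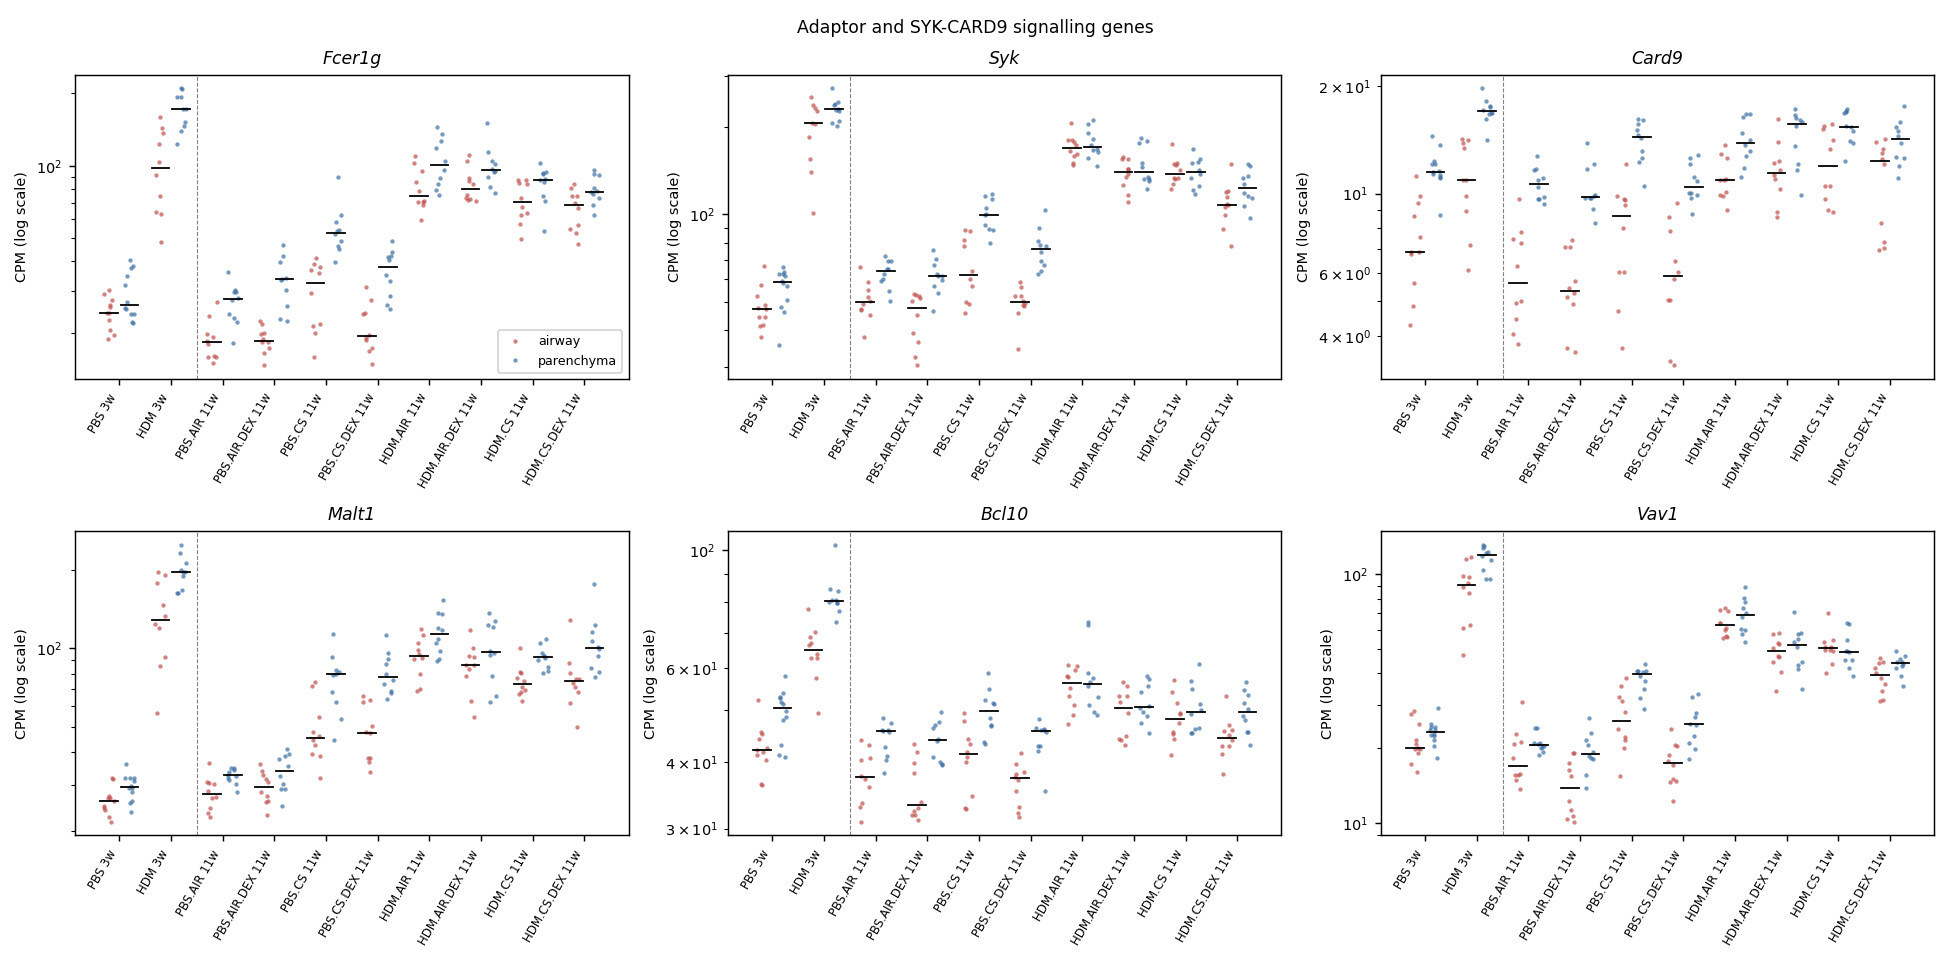
Level of the adaptor, kinase, exchange factor and CARD9 complex genes (CPM, log axis) in each library of the 20 groups, with airway libraries in red, parenchyma libraries in blue and black lines for group medians. Fcer1g, Syk, Vav1 and Malt1 separate the HDM from the PBS groups at 3 weeks, whereas Card9 and Bcl10 move over a narrower range.

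Within the 10 HDM airway libraries at 3 weeks, every gene of the set was lower where the airway score was higher. Pearson's r with the score ran from -0.97 for Clec4n to -0.71 for Bcl10, and Spearman's rho from -0.96 for Clec7a to -0.78 for Syk (10 relations, permutation tests with 100000 resamples, Benjamini-Hochberg adjusted p from 0.0001 to 0.024 for r and from 0.0003 to 0.011 for rho). Without the 2 libraries farthest from the median score, r ran from -0.97 to -0.81. This was the only group tested, and the share of all genes that follow the score in it was not computed. Card9 showed this relation in each of the 10 airway groups, with r from -0.96 to -0.58. For Vav1 and for Syk r was below -0.5 in 2 of 10 groups and ran up to 0.66 and 0.7. It ran up to 0.67 for Malt1 and 0.54 for Clec4e, and from -0.86 to 0.55 for Ptprc. With the score as a covariate Card9 rose by 0.57 in HDM airway at 3 weeks (log2 scale, adjusted p = 3e-08).

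**Figure D3:**
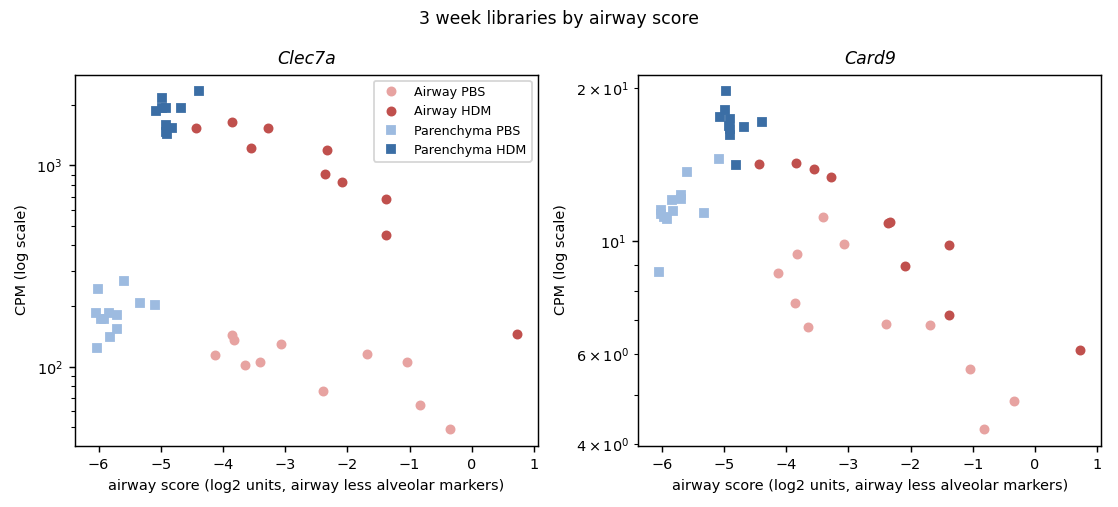
Level of Clec7a and Card9 (CPM) against the airway score (log2 units) in the 3 week libraries, coloured by group. Among HDM airway libraries both genes decline as the score rises, and the library with the score of 0.73 has the lowest Clec7a level of its group.

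At 11 weeks HDM without smoke or DEX again raised all 10 genes in both tissues. The HDM/air group was compared with PBS/air, and the smoke and DEX comparisons in PBS mice share those PBS/air libraries. In airway 10 of 10 rose, where 31.3% of the 18250 genes tested rose (61.1% changed), with a median log2 fold change of 1.96, and in parenchyma 10 of 10 rose, where 32.6% did (59.5% changed), with a median of 1.95. The medians of all genes were 0.00 and 0.05. A log2 fold change of at least 1 was reached by 8 of 10 genes in each tissue, all but Card9 and Bcl10, against 10.6% of all genes in airway and 13% in parenchyma.

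Clec4d had the largest fold at 11 weeks in airway, from 3.37, 5.59 and 13.2 to 60.2, 82.1 and 146.9 (14.6-fold, log2 fold change 3.87 ± 0.25, n = 10 and 10, adjusted p = 9.5e-31), with no overlap. In parenchyma Clec4d went from 7.33, 9.26 and 19.5 to 57.1, 108.04 and 189.8 (12.3-fold, 3.62 ± 0.23, adjusted p = 1.1e-31) and Clec4e rose 12.2-fold (3.61 ± 0.32), both without overlap. Clec7a rose 10.3-fold in airway and 7.16-fold in parenchyma, and Clec4n 9.08-fold and 7.38-fold. Fcer1g, Syk, Vav1 and Malt1 rose between 2.93-fold (Syk, parenchyma) and 4.36-fold (Fcer1g, airway), and Card9 by 0.94 and 0.47 on the log2 scale (adjusted p = 1.8e-08 and 0.0011). Card9 was the 1 gene of the 10 whose HDM/air and PBS/air libraries overlapped, which they did in both tissues. The share of all genes without overlap was not computed here either.

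Markers of several white blood cell types rose at 11 weeks too, and the summed mast cell markers did not. Mast cell sums in PBS/air and HDM/air were 140.9 to 199.2 and 44.998 to 121.04 CPM in parenchyma, without overlap. In airway they were 55.9 to 139.02 and 46.8 to 91.6 CPM, with overlap. How many of the single mast cell markers rose or fell is not given here either. Ptprc rose by 1.29 in airway and 1.01 in parenchyma on the log2 scale, without overlap. Of the 5 macrophage markers 4 rose in each tissue, with sums in PBS/air and HDM/air of 186.3 to 246 and 434 to 844 CPM in airway, and 209 to 356 and 564 to 1058 CPM in parenchyma. All 7 neutrophil markers rose in airway and 6 in parenchyma, and all 4 monocyte markers rose in both. Of the 5 dendritic cell markers 3 rose in each, while 2 fell in airway and 1 in parenchyma, with sums of 74.7 to 117.04 and 266 to 544 CPM in airway, and 114.2 to 196.3 and 352 to 930.3 CPM in parenchyma. The part of these cells in the values of the 10 genes was not tested.

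The HDM effect itself differed between 3 and 11 weeks for some of these genes. In parenchyma 6 of 10 had a smaller HDM effect at 11 weeks, where 20.9% of the 18528 genes tested had a lower one (42.4% differed). Clec4e differed by -1.32 ± 0.45 on the log2 scale (adjusted p = 0.011), Malt1 by -0.92 ± 0.19 (adjusted p = 2.6e-05), and Fcer1g, Syk, Bcl10 and Vav1 by -0.63 to -0.36, while Clec7a, Clec4n, Clec4d and Card9 did not pass. In airway 3 of 10 passed, with 28.4% of all genes. Clec4n and Clec4d had larger HDM effects at 11 weeks, by 1.05 ± 0.27 (adjusted p = 0.0013) and 0.85 ± 0.34 (adjusted p = 0.047), and Malt1 a smaller one, by -0.53 ± 0.19 (adjusted p = 0.024). Without X63 and the other libraries that stand apart, Clec4n was at 0.78 (adjusted p = 0.018), Clec4d at 0.68 (adjusted p = 0.13) and Malt1 at -0.73 (adjusted p = 0.0012).

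In the limma fits of each time point, the difference of the HDM effect between airway and parenchyma passed for none of the 10 genes, and single genes passed in other fits. At 3 weeks 0 of 10 passed with limma (17.3% of all genes did), 2 had an unadjusted p under 0.05, and edgeR and DESeq2 also called 0. Fcer1g passed at 3 weeks, with a smaller HDM effect in airway, with DESeq2 size factors (-0.633, adjusted p = 0.044), with all libraries in 1 fit (-0.6, adjusted p = 0.024), with sample quality weights (-0.566, adjusted p = 0.022) and with a stricter filter on low counts (-0.667, adjusted p = 0.026), as did Malt1 in the last (-0.547, adjusted p = 0.033). At 11 weeks 0 of 10 passed with limma (27.6% of all genes did), 1 had an unadjusted p under 0.05, and edgeR and DESeq2 called 0, while Card9 passed with all libraries in 1 fit (0.507, adjusted p = 0.039). With the airway score as a covariate 3 of 10 passed at 11 weeks, with a smaller HDM effect in airway. They were Clec4d (-1.10, adjusted p = 0.028), Clec4n (-0.995, adjusted p = 0.0069) and Fcer1g (-0.96, adjusted p = 0.00093), all with a positive difference without the score. HDM itself moved the score, from a median of -2.04 to -3.2 in airway and from -5.56 to -4.54 in parenchyma. This fit therefore cannot separate the HDM effect from the score. With the score the share of all genes called moved by no more than 1.5 times from the 27.6%. The 95% interval (normal approximation) of the difference for Clec7a ran from -0.86 to 0.49 at 3 weeks and from -0.07 to 1.13 at 11 weeks on the log2 scale, and that of Card9 at 11 weeks from 0.08 to 0.86, so differences of these sizes lay within the intervals.

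Smoke without HDM raised all 10 genes in parenchyma and 7 of them in airway. These counts compare with 17.7% of all genes higher in parenchyma (35.9% changed) and 7.66% in airway (13.7% changed). The median log2 fold change of the 10 was 1.11 in parenchyma and 0.67 in airway, against 0.00 over all genes in each. Clec4d again led, from 7.33, 9.26 and 19.5 in PBS/air to 24.6, 44.9 and 60.6 in smoke parenchyma (4.52-fold, log2 fold change 2.18 ± 0.23, n = 10 and 10, adjusted p = 3.2e-15) and from 3.37, 5.59 and 13.2 to 14.9, 24.5 and 47.1 in airway (4.23-fold, 2.08 ± 0.25, adjusted p = 4.2e-11). The groups did not overlap in either tissue.

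Clec4n followed, from 35.9, 45.8 and 65.99 to 114.9, 160.2 and 203.3 in parenchyma (3.41-fold, 1.77 ± 0.18, adjusted p = 5.5e-16, no overlap) and 2.77-fold in airway (adjusted p = 4.2e-11, with overlap). Clec7a rose 2.53-fold in parenchyma and 1.97-fold in airway, Fcer1g 2.05-fold and 1.51-fold, and Malt1 2.29-fold and 1.71-fold. In airway Clec4e (0.73, adjusted p = 0.22), Card9 (0.33, adjusted p = 0.16) and Bcl10 (0.10, adjusted p = 0.35) did not pass. Clec4e passed in airway with edgeR (0.814, adjusted p = 0.03) and DESeq2 (0.808, adjusted p = 0.018). It did not pass with sample quality weights (0.919, adjusted p = 0.12). Between the tissues the smoke effect passed for 0 of 10 genes with limma (3.73% of all genes), with 4 at an unadjusted p under 0.05 and 0 by edgeR or DESeq2.

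In the smoke comparison Ptprc did not pass (0.02 in parenchyma, adjusted p = 0.93, and 0.20 in airway, adjusted p = 0.36), whereas all 5 macrophage markers rose in both tissues. Their summed level was 209 to 356 CPM in PBS/air and 579 to 864 CPM with smoke in parenchyma, and 186.3 to 246 and 275 to 578 CPM in airway. Of the 7 neutrophil markers 6 rose in parenchyma and 7 in airway, with sums of 159.8 to 632 CPM and 335 to 816 CPM in parenchyma, and 55.3 to 399 and 141.7 to 585 CPM in airway. Of the 5 dendritic cell markers 2 rose and 1 fell in parenchyma, where the sums of 114.2 to 196.3 and 225 to 307 CPM did not overlap, and 2 rose in airway, with sums of 74.7 to 117.04 and 76.4 to 214 CPM. Of the 4 monocyte markers 1 rose in parenchyma and 2 in airway. The part of these cells in the smoke values was not tested.

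Smoke given with HDM left all 10 genes above PBS/air and lowered part of them relative to HDM alone. In mice given both, 10 of 10 genes were above PBS/air in each tissue (25.2% of all genes in airway and 25.4% in parenchyma were), with Clec4d 14.6-fold higher in airway and 9.14-fold in parenchyma. Set against HDM alone, 6 of 10 were lower in parenchyma, where 14.1% of all genes were lower (24.1% changed), and 3 of 10 in airway, where 10.1% were lower (16.2% changed). Clec4e went from 32.96, 79.5 and 237 with HDM to 23.5, 44.02 and 90.2 with HDM plus smoke in parenchyma (2.10-fold lower, log2 fold change -1.07 ± 0.24, adjusted p = 0.00021), and the groups overlapped. Clec7a (-0.76), Clec4n (-0.52), Vav1 (-0.49), Syk (-0.36) and Bcl10 (-0.21) also fell there. Malt1 passed as lower without the libraries that stand apart (-0.332, adjusted p = 0.048). In airway the 3 that fell were Vav1 (-0.33, adjusted p = 0.025), Syk (-0.28, adjusted p = 0.041) and Bcl10 (-0.21, adjusted p = 0.02), and Ptprc fell too in airway (-0.40) and parenchyma (-0.47). With sample quality weights 1 of the 3 in airway passed, Syk (-0.283, adjusted p = 0.022), and neither Bcl10 (adjusted p = 0.079) nor Vav1 (adjusted p = 0.08) did. Syk in turn did not pass with all libraries in 1 fit (adjusted p = 0.068) or with each tissue alone (adjusted p = 0.083). Bcl10 did not pass without the low-count filter (adjusted p = 0.067).

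The test of the HDM by smoke interaction asks whether the HDM effect within smoke differs from that in air. The term lay below 0 for all 10 genes in both tissues, and it passed as negative for 9 of 10 in parenchyma, where 18.7% of all genes had a lower one (36% differed), and for 8 of 10 in airway, where 11.4% had (19.1% differed). Clec4d had the most negative term in both, -2.61 ± 0.29 in parenchyma (log2 scale, SE, adjusted p = 1.7e-13) and -2.08 ± 0.31 in airway (adjusted p = 1.7e-07). In parenchyma its medians were 9.26 CPM in PBS/air, 44.9 with smoke, 108.04 with HDM and 92.4 with both. Clec4e (-2.34), Clec4n (-2.29), Clec7a (-2.10), Malt1 (-1.52), Fcer1g (-1.37), Vav1 (-1.34) and Syk (-1.04) had terms below -1 in parenchyma, and Bcl10 was at -0.39. Card9 passed in neither tissue (-0.30, adjusted p = 0.19, and -0.22, adjusted p = 0.5), nor did Clec4e in airway (-1.17, adjusted p = 0.051). Both HDM and smoke were measured against the same PBS/air libraries, which enter the interaction. The term of Ptprc also passed as negative, at -0.60 in airway (adjusted p = 0.02) and -0.48 in parenchyma (adjusted p = 0.042), as did those of 3 of 5 macrophage and 5 of 7 neutrophil markers in airway and 4 of 5 and 5 of 7 in parenchyma. Their part in the terms of the 10 genes was not tested.

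**Figure D4:**
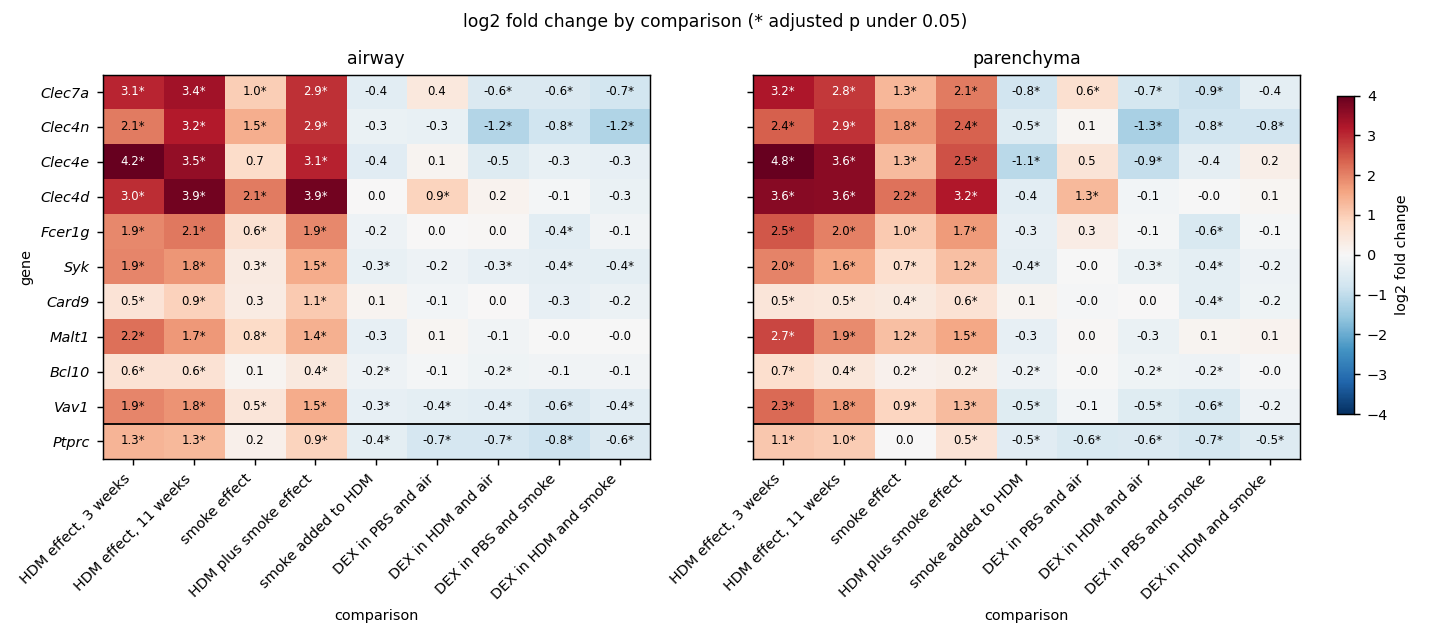
Log2 fold changes of the 10 genes and of Ptprc (rows) in each comparison (columns) for airway and parenchyma, with red for higher, blue for lower and an asterisk where the adjusted p was under 0.05. The HDM columns are red for all 10 genes, and Clec4d is red for DEX in PBS/air mice. For DEX in HDM/air mice, the bluest of the 10 genes are Clec4n, Clec7a and Clec4e, the last without an asterisk in airway.

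In HDM/air mice DEX lowered Clec4n in both tissues, and neither Clec4d nor Fcer1g passed. In all, 6 of 10 genes fell in parenchyma, where 16.2% of all genes fell (28.5% changed), and 5 of 10 in airway, where 16.1% fell (28.6% changed). Clec4n went from 197.6, 335 and 603 in HDM/air to 99.7, 131.6 and 182.7 with DEX in parenchyma (2.45-fold lower, log2 fold change -1.29 ± 0.19, n = 10 and 10, adjusted p = 8.5e-09), with no overlap. In airway Clec4n went from 129.1, 229.6 and 372 to 75.9, 102.7 and 145.2 (2.26-fold lower, -1.18 ± 0.18, adjusted p = 5e-08), with some overlap. Clec4d had 57.1, 108.04 and 189.8 CPM without and 76.7, 97.3 and 169.2 CPM with DEX in parenchyma, a log2 fold change of -0.10 (95% interval -0.46 to 0.25, adjusted p = 0.74), and in airway 0.15 (95% interval -0.20 to 0.50, adjusted p = 0.58). The ranges with and without DEX overlapped almost wholly.

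Clec7a fell with DEX 1.62-fold in parenchyma (-0.69 ± 0.24, adjusted p = 0.017) and 1.49-fold in airway (-0.57 ± 0.23, adjusted p = 0.049). Without X109 and the other libraries that stand apart the airway value was -0.53 (adjusted p = 0.088). Clec4e fell 1.92-fold in parenchyma (-0.94 ± 0.24, adjusted p = 0.001) and did not pass in airway (-0.51, adjusted p = 0.092). Syk, Vav1 and Bcl10 fell in both tissues, Vav1 by 1.39-fold in parenchyma and 1.34-fold in airway, Syk by 1.21-fold and 1.25-fold, and Bcl10 by 1.13-fold and 1.13-fold. Fcer1g, Card9 and Malt1 did not pass in either tissue, with log2 fold changes from -0.26 to 0.03.

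White blood cell markers also moved with DEX in HDM/air mice. Ptprc fell in both, at 362 to 489 CPM without and 245 to 329.8 CPM with DEX in parenchyma (-0.59), and 334 to 519 and 217 to 315 CPM in airway (-0.67), with no overlap. All 4 monocyte markers fell in both tissues, with sums of 367 to 620.0 CPM without and 211 to 374 CPM with DEX in parenchyma, and 406 to 658 and 235 to 401 CPM in airway. Median neutrophil sums were 720.42 CPM without and 522.51 CPM with DEX in parenchyma, and 609.25 and 429.57 CPM in airway. The neutrophil ranges overlapped in both tissues. How many of the single neutrophil markers fell is not given here. Of 5 dendritic cell markers 4 fell in parenchyma and 3 in airway, and all 4 B cell markers fell in both. Of the 5 macrophage markers 1 fell in parenchyma, and 1 fell and 1 rose in airway, with summed levels of 564 to 1058 and 681 to 1041 CPM in parenchyma and 434 to 844 and 589 to 882 CPM in airway. The part of these cells in the DEX values was not tested.

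In PBS/air mice DEX raised Clec4d in both tissues. It made 2 of 10 genes higher in parenchyma, where 10.6% of all genes were (22.6% changed), and 1 higher and 1 lower in airway, where 8.03% and 6.85% were. Clec4d went from 7.33, 9.26 and 19.5 to 18.4, 22.7 and 31.3 in parenchyma (2.46-fold, log2 fold change 1.30 ± 0.23, adjusted p = 5e-06) and from 3.37, 5.59 and 13.2 to 5.60, 10.6 and 17.8 in airway (1.85-fold, 0.89 ± 0.27, adjusted p = 0.015). Both pairs of groups overlapped, in parenchyma by 1 PBS/air library, X166, at 19.5 CPM. In airway Clec4d did not pass with sample quality weights (0.79, adjusted p = 0.065). Clec7a rose in parenchyma (0.63 ± 0.20, adjusted p = 0.013) and Vav1 fell in airway (-0.40 ± 0.13, adjusted p = 0.023). Ptprc fell in both tissues (-0.61 and -0.68). In parenchyma 5 of 7 neutrophil markers rose, with sums without and with DEX of 159.8 to 632 and 317 to 701 CPM, and 2 of 5 macrophage markers, with sums of 209 to 356 and 308 to 401 CPM. In airway none of the neutrophil markers passed, with sums of 55.3 to 399 and 97.3 to 274 CPM, and 1 macrophage marker rose. Of the dendritic cell markers 3 of 5 fell in parenchyma and 2 in airway, and of the monocyte markers 1 of 4 in each. The part of these cells in the rise of Clec4d was not tested.

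With smoke, DEX lowered 7 of 10 genes in parenchyma, where 9.49% of all genes fell (16.9% changed), and 5 of 10 in airway, where 6.61% fell (11.3% changed). Clec7a fell 1.82-fold in parenchyma (-0.87 ± 0.21, adjusted p = 0.0013), Clec4n 1.75-fold, Vav1 1.53-fold and Fcer1g 1.51-fold. Clec4d (-0.03), Clec4e (-0.36) and Malt1 (0.12) did not pass there. In mice given HDM and smoke, Clec4n fell with DEX in both tissues, 2.30-fold in airway without overlap (-1.20 ± 0.18, adjusted p = 2.1e-07) and 1.70-fold in parenchyma (-0.77 ± 0.18, adjusted p = 0.0024). It was the 1 gene of 10 that fell in parenchyma (5.39% of all genes fell, 7.85% changed), and in airway Clec7a, Syk and Vav1 fell as well, 4 of 10 (7.06% fell, 9.3% changed). Clec4n was thus the receptor that passed as lower in all 6 comparisons of DEX in HDM or smoke mice. In the same groups Ptprc fell with DEX, by 0.71 in parenchyma and 0.84 in airway with smoke and by 0.53 and 0.57 with HDM and smoke (log2 scale). Of the 5 dendritic cell markers 4 fell in each tissue with smoke, and 3 in parenchyma and 4 in airway with HDM and smoke. Of the 5 macrophage markers 1 fell, in parenchyma with smoke, and none passed elsewhere. Median neutrophil sums without and with DEX were 559.28 and 581.47 CPM in parenchyma and 283.08 and 261.23 in airway with smoke. With HDM and smoke they were 562.51 and 777.79 CPM in parenchyma and 521.82 and 573.01 in airway. Median monocyte sums there were 346.88 and 268.88 CPM, and 345.51 and 226.23. With smoke they were 258.67 and 233.17 CPM in parenchyma. In airway with smoke monocyte sums were 170.83 to 284.02 and 136.28 to 220.88 CPM. The part of these cells in the DEX values was not tested.

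The 4 receptors also changed their proportions under DEX. Per length, Clec4n made up 34.4% ± 3.41 (SD, n = 10) of the summed receptor level in HDM/air parenchyma and 24.6% ± 3.55 with DEX, and Clec4d 10.6% ± 1.94 and 17.3% ± 3.45. The ranges did not overlap for Clec4n (30.3 to 42.8% and 19.6 to 29.3%) or for Clec4d (7.90 to 13.4% and 14.1 to 24.4%). In airway Clec4d went from 11.05% ± 1.41 to 18.99% ± 2.77 without overlap and Clec4n from 33.5% ± 3.61 to 23.1% ± 3.84 with overlap. In PBS/air parenchyma the values were 35.8% ± 2.36 and 26.6% ± 3.67 for Clec4n and 6.75% ± 1.94 and 11.3% ± 1.46 for Clec4d. Smoke alone gave Clec4n its highest group mean in each tissue, 42.5% ± 2.17 in airway and 40.98% ± 2.89 in parenchyma. A share says how the 4 genes stand to each other and was not tested.

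HDM raised all 10 genes under DEX as well, 10 of 10 in airway (23.6% of all genes rose, 49.7% changed) and 10 of 10 in parenchyma (22.5% rose, 42.1% changed). Its effect on the receptors was smaller under DEX in parenchyma, where the HDM by DEX interaction passed as negative for 4 of 10 genes, the 4 receptors, and for 6.4% of all genes (12.4% differed). The term was -1.46 ± 0.43 for Clec4e (adjusted p = 0.015), -1.40 ± 0.30 for Clec4d (adjusted p = 0.00049), -1.37 ± 0.26 for Clec4n (adjusted p = 9.3e-05) and -1.32 ± 0.31 for Clec7a (adjusted p = 0.0018). None of the 6 signalling genes passed, with terms from -0.37 for Fcer1g to 0.07 for Card9, and the term of Ptprc was 0.02 (adjusted p = 0.97). In parenchyma the median neutrophil sums were 236 CPM in PBS/air and 442 with DEX, and 720 in HDM/air and 523 with DEX. In the same order macrophage sums were 233, 351, 815 and 816 CPM. Monocyte sums were 231, 184.4, 509 and 275 CPM, and dendritic cell sums 136.1, 137.5, 574 and 333 CPM. The part of these cells in the terms of the receptors was not tested. For Clec4d the term came with a higher level under DEX in PBS/air mice (median 22.7 against 9.26 CPM) and like levels in HDM mice (97.3 against 108.04 CPM).

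In airway the interaction with DEX passed for 2 of 10 genes, Clec7a (-0.99 ± 0.30, adjusted p = 0.032) and Clec4n (-0.87 ± 0.26, adjusted p = 0.032), where 3.52% of all genes had a lower term (4.62% differed). Neither passed without the libraries that stand apart, at -0.94 (adjusted p = 0.055) for Clec7a and -0.81 (adjusted p = 0.056) for Clec4n. Both also missed the threshold without the low-count filter and in fits of 1 tissue or of all libraries.

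**Figure D5:**
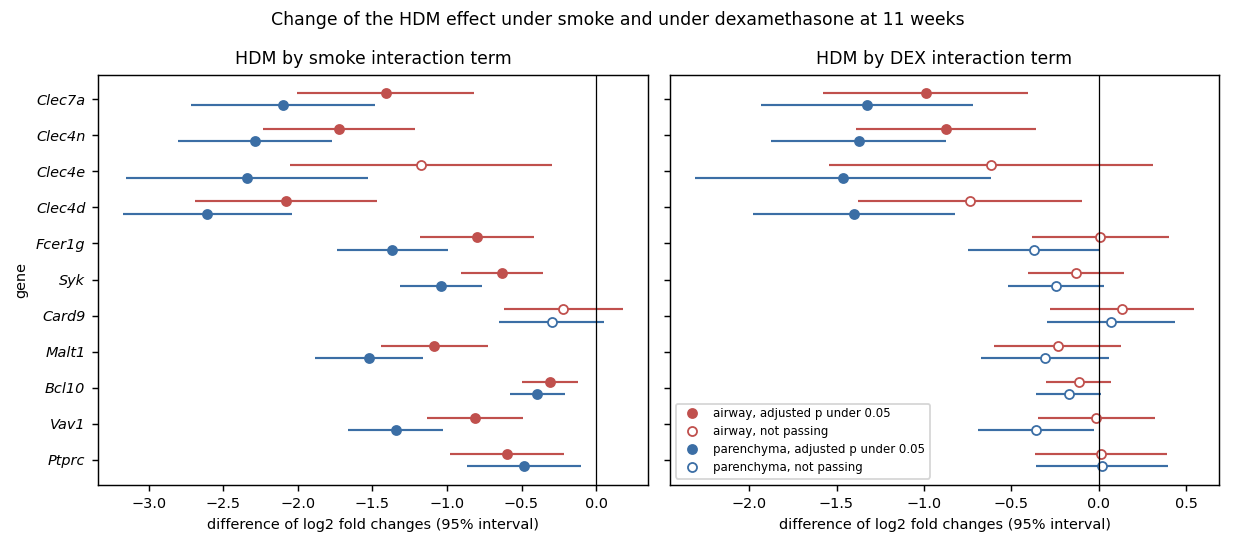
Interaction terms (log2 scale, with 95% intervals) of HDM with smoke and of HDM with DEX for each of the 10 genes in airway and parenchyma, with filled symbols where the adjusted p was under 0.05. All smoke terms lie below 0, most of them clear of it, whereas the DEX terms that pass belong to receptors.

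Ordered by median within a tissue, HDM at 3 weeks was the highest group for Clec7a and Clec4e in airway and parenchyma, and PBS/air at 11 weeks the lowest. For Clec7a the parenchyma medians ran, from low to high, 133.9 CPM in PBS/air, 182.6 in 3 week PBS, 195.4 in smoke with DEX, 200.4 in PBS/air with DEX, 343 in smoke, 448 in HDM and smoke with DEX, 579 in HDM and smoke, 592 in HDM/air with DEX, 992 in HDM/air and 1888 in 3 week HDM. Neighbours in this order were mostly not separated: over the 10 genes and both tissues, 6 of 180 neighbouring pairs of groups did not overlap. For Clec4e in airway the separated pair was smoke (8.83 CPM) and HDM/air with DEX (41.8 CPM). By median this pair lies where the 5 groups without HDM meet the 5 with it. Libraries of the 2 sets still overlapped, with the lowest in HDM and smoke with DEX at 14.2 CPM and the highest in smoke at 17.6 CPM.

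Across libraries of the same group, the genes varied together to different degrees. After group means were taken out, Pearson's r over all libraries was 0.80 for Syk with Vav1, 0.79 for Clec7a with Clec4n and 0.79 for Clec4e with Clec4d. It was 0.31 for Card9 with Malt1, 0.28 for Card9 with Bcl10 and 0.31 for Malt1 with Bcl10, although their proteins form 1 complex. With Ptprc, r was 0.72 for Vav1 and 0.65 for Syk, but 0.04 for Clec4d. These values are descriptions, since libraries share dissection and cell makeup.

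Over the means of the 20 groups, genes among the 5 most like Clec7a were Ncf1 (r = 0.987), which encodes a subunit of the NADPH oxidase, and Ctss (0.987), which encodes a lysosomal protease. Alox5ap (0.967) and Milr1 (0.967) were among the 5 most like Clec4n, Rnf149 (0.992) and Igsf6 (0.992) among those most like Clec4e, and Gm49339 (0.988) and Trem2 (0.988) among those most like Clec4d. All points share the same 20 exposures.

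The other genes of the pathway were described from lists by role, with HDM at 3 weeks as the common comparison, in which 34.1% of all genes rose in airway and 33.4% in parenchyma. Among the 21 tested of 24 other C-type lectin receptors, 8 rose and 10 fell in airway and 9 rose and 6 fell in parenchyma, with a median log2 fold change of -0.17 and 0.36, so the share that rose was near that of all genes. Clec5a, another myeloid lectin, rose most in both tissues (2.84 ± 0.20 and 3.76 ± 0.22), followed by Clec4a1 (2.03 and 2.57), while Clec4g, a lectin of endothelial cells, fell (-2.02 ± 0.26 and -2.15 ± 0.24). Clec12b fell with HDM in both tissues (-1.29 and -1.92) and rose with DEX in HDM/air mice (1.93 in airway, adjusted p = 2.1e-08, and 1.78 in parenchyma, adjusted p = 2.8e-08). Genes in these lists are named for the largest changes at 3 weeks, so their 3 week values describe that choice.

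Of 13 tested of 14 genes in a list of ITAM receptors, adaptors and integrin chains, 11 rose in each tissue and 0 and 2 fell. Their medians were 2.27 and 2.46. Itgam, which encodes the integrin alpha chain CD11b, rose by 2.75 and 3.28, and Trem2 by 2.39 and 3.25. Of 20 proximal kinases, lipases and adaptors 18 rose in each, with medians of 1.39 and 1.63. Fgr, a SRC family kinase, rose by 2.36 and 2.54 and Plcg2 by 1.78 and 2.05, while Plcg1 fell (-0.40 and -0.68). Plcg2 was lower with DEX in HDM/air mice (-0.96, adjusted p = 1.2e-16 in airway, and -0.81, adjusted p = 1.7e-12 in parenchyma), and so were 12 of these 20 genes in airway and 13 in parenchyma, where 16.1% and 16.2% of all genes were.

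The other scaffolds and partners of the CARD9 complex were divided. Of 11 tested, 7 rose and 3 fell in each tissue, with medians of 0.35 and 0.23. Card10, the counterpart of Card9 in non-blood cells, fell (-0.41 ± 0.10 and -0.66 ± 0.11). Trim62, which encodes a ubiquitin ligase of CARD9, fell by 0.33 and 0.52 on the log2 scale. Of 15 tested of 16 negative regulators 13 and 12 rose, led by the inhibitory Fc receptor gene Fcgr2b (2.87 ± 0.13 and 3.63 ± 0.13), and of 14 NF-kB, NFAT and IRF factors 11 and 10 rose, with Rel at 2.03 and 2.24. Of 16 tested of 17 output cytokines and chemokines 15 rose in each tissue and none fell, with medians of 2.39 and 3.20, Il10 at 3.23 ± 0.35 and 5.02 ± 0.45 and Tnf at 3.01 ± 0.25 and 4.00 ± 0.28. The corresponding medians over all genes were -0.07 and -0.13.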

How the data were processed

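Per the labels and the methods, RNA from dissected airway and parenchyma of 203 mouse lung samples was sequenced, aligned to mm10 with STAR 2.5.1b and quantified with RSEM 1.2.31 and kallisto 0.44.0. Which of the quantifiers made the table is not given in the sources used here. The authors deposited estimated counts per gene, unscaled, with 1 column per library, and 20.3% of non-zero values were not whole, so values were rounded. Gene identifiers were matched to GENCODE M21 without version suffixes (42462 of 43346 matched).

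Groups were taken from the sample titles. A gene was kept when at least 9 libraries had the CPM that 10 counts give in a library of median size. TMM-scaled counts were tested with limma-voom (limma 3.58.1, edgeR 4.0.16, R 4.3.3) in 1 fit of the 43 libraries at 3 weeks, 1 of the 160 at 11 weeks, and 1 of all 203 for differences between time points. Adjusted p-values are from limma with Benjamini-Hochberg adjustment over all genes of a fit, and the threshold was 0.05. The code was tested on simulated data. Nothing in the labels says that samples of a group were processed as separate batches, and p-values measure the spread between these samples.

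The members and all lists were chosen with earlier results of these data known. The text names the 10 members throughout. From each pathway list it names genes from the 3 largest rises and the 3 largest falls under HDM at 3 weeks that passed in both tissues, and for each receptor genes from the 5 with the most similar group means (Python 3.11.15, pandas 2.3.3, scipy 1.17.1, matplotlib 3.10.9). Some genes that this rule picks are not reported here.

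The fits were repeated with the quasi-likelihood test of edgeR, with DESeq2 1.42.0, with its size factors, without the filter and with a stricter one (9 libraries at a CPM of 10 or more), with all libraries in 1 fit, with each tissue alone and with sample quality weights. Leaving out libraries X32, X63 and X109, and adding the airway score as a covariate with 1 slope per tissue, were added after the data were seen. The score was centred within each tissue, so it does not adjust the difference between tissues in control mice for airway content. HDM itself moved the score, so fits with the score cannot separate it from HDM. Marker lists covered leukocytes, macrophages, monocytes, neutrophils, eosinophils, dendritic cells, mast cells, T cells and B cells, and airway and alveolar cells for the score.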

Additional observations from a re-analysis of the deposited data

Results flagged for a closer look

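Single libraries lay far from the rest of their group for 8 of the 10 genes, by the gap to the nearest library over the range of the group (Dixon's 95% critical value). That held for 14 of the 180 combinations of gene and group tested, and chance gives about 1 in 20. Group names here follow the report, and all values are in CPM.

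X77 (HDM and smoke, airway) was the highest library of its group for Syk (174.96, nearest 150.05), Malt1 (100.4, nearest 81.04) and Vav1 (70.003, nearest 54.7). X173 (smoke, parenchyma) was the highest for Clec7a (563, nearest 373) and Fcer1g (89.4, nearest 62.4). X160 (HDM and smoke with DEX, parenchyma) was the lowest for Clec7a (219, nearest 416) and the highest for Malt1 (176.2, nearest 123.4).

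Clec4d stood high in X166 (PBS/air, parenchyma) at 19.5, with the nearest library at 13.6, and in X189 (HDM/air, airway) at 146.9, with the nearest at 103.4. Clec4e stood low in X168 (PBS/air with DEX, parenchyma) at 4.92, with the nearest at 10.1. Fcer1g stood high in X112 (HDM/air with DEX, parenchyma) at 151.2, with the nearest at 113.6, and Malt1 in X159 (HDM and smoke with DEX, airway) at 128.3, with the nearest at 88.3. Bcl10 stood high in X64 (3 week HDM, parenchyma) at 102.3, with the nearest at 84.5, and low in X96 (smoke with DEX, parenchyma) at 35.3, with the nearest at 41.9.

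The HDM effect differed between 11 and 3 weeks (limma, fit of all libraries, log2 scale, 11 less 3 weeks) for 9 combinations of gene and tissue. In airway the differences were 1.05 for Clec4n (adjusted p = 0.0013), 0.85 for Clec4d (adjusted p = 0.047) and -0.53 for Malt1 (adjusted p = 0.024). In parenchyma they were -1.32 for Clec4e (adjusted p = 0.011), -0.59 for Fcer1g (adjusted p = 0.011), -0.56 for Syk (adjusted p = 0.00074), -0.92 for Malt1 (adjusted p = 2.6e-05), -0.36 for Bcl10 (adjusted p = 0.00085) and -0.63 for Vav1 (adjusted p = 0.001). The frequency and the duration of HDM dosing both differed between these time points and cannot be told apart.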

How the results depend on the processing

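Each comparison of the 10 genes was repeated under the alternatives, which gave 3030 values: 2869 kept their direction and their side of the threshold, 57 no longer passed, 53 newly passed and 51 changed sign. No paired analysis was possible because every library has its own code and none is shared between groups. The cause of the changes below was not tested.

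None of the 51 values that changed sign passed in the reported fit, and 3 of them passed after it, with the airway score, for the tissue difference of the HDM effect at 11 weeks. On the log2 scale the values that changed sign were as follows. With the stricter filter they were -0.001 for Clec4d (smoke added to HDM in airway) and 0.004 for Malt1 (DEX in HDM and smoke airway). With DESeq2 they were -0.006 for Fcer1g (DEX in PBS and air airway), 0.035 for Malt1 (DEX in HDM and smoke airway), 0.005 for Vav1 (HDM by DEX in airway), -0.032 for Clec7a (HDM by week in airway), -0.007 for Card9 (HDM by tissue at 3 weeks) and -0.02 for Vav1 (HDM by tissue at 11 weeks). With DESeq2 size factors they were 0.005 for Malt1 (DEX in HDM and smoke airway) and 0.005 for Vav1 (HDM by DEX in airway). With the airway score as a covariate they were -0.124 for Fcer1g (DEX in PBS and air airway), -0.08 for Fcer1g and -0.11 for Card9 (DEX in HDM and air airway), 0.038 for Card9 (HDM by smoke in airway), -0.496 for Clec7a, -0.256 for Fcer1g and -0.207 for Card9 (HDM by week in airway), -0.179 for Clec4n and -0.041 for Malt1 (DEX in PBS and air parenchyma), -0.054 for Card9 (DEX in HDM and air parenchyma), -0.092 for Clec4e and -0.277 for Clec4d (DEX in HDM and smoke parenchyma), 0.21 for Clec7a and 0.114 for Syk (HDM by tissue at 3 weeks) and -0.785 for Clec7a, -0.995 for Clec4n, -1.097 for Clec4d, -0.961 for Fcer1g, -0.03 for Syk, -0.262 for Card9, -0.149 for Bcl10 and -0.302 for Vav1 (HDM by tissue at 11 weeks). With all libraries in 1 fit they were 0.012 for Malt1 (DEX in HDM and smoke airway) and 0.024 for Vav1 (HDM by DEX in airway). With edgeR they were 0.023 for Malt1 (DEX in HDM and smoke airway), -0.018 for Clec7a (HDM by week in airway), 0.018 for Clec7a (HDM by tissue at 3 weeks) and -0.007 for Vav1 (HDM by tissue at 11 weeks). Without a filter they were 0.009 for Malt1 (DEX in HDM and smoke airway), 0.013 for Vav1 (HDM by DEX in airway) and -0.009 for Card9 (HDM by tissue at 3 weeks). With sample quality weights they were 0.04 for Vav1 (HDM by DEX in airway), -0.053 for Clec7a (HDM by week in airway), 0.051 for Clec4d and -0.002 for Malt1 (DEX in PBS and smoke parenchyma), 0.174 for Syk (HDM by tissue at 3 weeks) and -0.011 for Vav1 (HDM by tissue at 11 weeks). Without the libraries that stand apart they were 0.012 for Vav1 (HDM by DEX in airway), -0.107 for Clec7a and -0.049 for Fcer1g (HDM by week in airway) and 0.024 for Clec7a (HDM by tissue at 3 weeks).

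Counts of the 10 genes that passed moved by over 1.5 times in 23 cases. The HDM by DEX interaction in airway (2 as reported) had 0 without a filter, with all libraries in 1 fit, with each tissue alone and without the libraries that stand apart, and 1 with sample quality weights. The HDM by tissue difference (0 as reported) had 1 at 3 weeks with DESeq2 size factors, with all libraries in 1 fit and with quality weights, 2 with the stricter filter, and at 11 weeks 1 with all libraries in 1 fit and 3 with the airway score. The smoke by tissue difference had 2 with the airway score. Smoke added to HDM in airway had 1 with quality weights (3 as reported). For DEX in PBS/air the airway count was 1 with quality weights and 5 with the airway score (2 as reported), and the parenchyma count 1 with the airway score (2 as reported). DEX in HDM/air airway had 3 with all libraries in 1 fit (5 as reported), DEX with smoke in airway 3 without a filter (5 as reported), and DEX with HDM and smoke in parenchyma 2 with quality weights and 3 with the airway score (1 as reported). HDM by week in airway had 1 without a filter and 1 with each tissue alone (3 as reported), and the control tissue difference at 11 weeks 2 with the airway score (7 as reported).

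The share of all genes called, at the threshold alone or with an absolute log2 fold change of at least 1, moved by over 1.5 times in 36 results without a filter (ratios 0.42 to 0.66), 23 with the stricter filter (0.4 to 0.66), 7 with quality weights (1.56 to 2.06), 6 with the airway score (0.44 to 1.75) and 4 with DESeq2 (1.51 to 1.75). The largest shift of the median of all genes between scalings was from -0.127 (TMM) to -0.037 (size factors), for HDM in parenchyma at 3 weeks.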
